A study of Mus musculus with 18 samples.

Results

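The genes described here are the classical axon guidance ligands and receptors measured in mouse dorsal root ganglia (DRG): the ephrins and Eph receptors, the semaphorins, plexins and neuropilins, the Slits and Robos, and the netrins with Dcc and the Unc5 receptors. They were chosen by gene symbol, with earlier results of these data known. Of the 18193 genes with a named probe set, 70 matched. There were 8 ephrins, 13 Eph receptors, 20 semaphorins, 11 plexins and neuropilins, 7 Slits and Robos and 10 netrins and netrin receptors. The remaining symbol, *Plxna4os1*, is an antisense transcript that matched only by its letters. Setting it aside leaves 36 ligands and 33 receptors.

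RNA of whole DRG from every spinal level was hybridised to Affymetrix mouse genome arrays, with 18 arrays in 6 groups of 3. The question was how gene expression in the ganglia differs when 1 of 3 sodium channels of damage-sensing neurons is missing. Nav1.7 KO mice carried a floxed *Scn9a* gene deleted by Cre under the Advillin gene *Avil*, which is active in sensory neurons, so other cells of the ganglion keep the channel gene. Nav1.8 KO mice were global nulls for *Scn10a*, and Nav1.9 KO mice were global nulls for *Scn11a*. Each line had its own littermates as controls, labelled wild type. The mice of the study were young adults of both sexes. Whether an array held the RNA of 1 animal is not stated, so p-values measure the spread between these samples, which may be technical in part.

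Guidance ligands steer growing axons by binding receptors on the growth cone, where they attract it or make it collapse. Ephrins are tethered to the cell surface and bind Eph receptor kinases on a neighbouring cell, semaphorins act through plexins with or without neuropilins, Slits act through Robos, and netrins act through Dcc and Unc5 receptors. Many of these genes stay switched on in adult sensory neurons, glia, vessels and connective tissue, where they take part in adhesion, synapse upkeep and the response to nerve injury.

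Values below are log2 intensities, so a difference of 1 is a doubling in brightness, and each gene is read from its brightest probe set. Brightness depends on the probes, so no gene's value was set against another gene's. Calls are from limma with Benjamini-Hochberg adjustment over all 18193 genes at an adjusted p under 0.05. *Scn10a* fell by 1.57 on the log2 scale in Nav1.8 KO DRG (adjusted p = 5.4e-05 from limma), and *Scn11a* fell by 1.85 in Nav1.9 KO DRG (adjusted p = 7.13e-07). The log2 fold change of *Scn9a* in Nav1.7 KO DRG was -0.06 (adjusted p = 0.642). The exons removed from *Scn9a* are not given in the sources used here, and its probe set may lie outside them, so these arrays do not check the deletion. *Avil* itself fell by 0.64 there (adjusted p = 8.03e-08), and effects of the *Scn9a* deletion, the Cre allele and the lower *Avil* cannot be told apart. By *Xist*, an RNA made in female cells, 2 of 3 Nav1.7 KO arrays and 3 of 3 Nav1.7 littermate arrays were high, as were 2 of 3 Nav1.8 KO arrays. The 3 Nav1.8 littermate arrays and all 6 arrays of the Nav1.9 line were low. The 13 measured sensory neuron markers averaged 12.90 to 12.94 in Nav1.7 KO arrays and 13.00 to 13.02 in the littermate arrays of that line. The 9 spinal cord markers averaged under 5 on every array.

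In Nav1.7 KO DRG, 11 of the 70 guidance genes changed, which is 15.7% of them, beside 4.33% of all genes. The receptors *Epha5*, *Unc5d* and *Plxna2* and the ligands *Sema3c*, *Slit1* and *Sema4f* rose, 6 genes in all, beside 1.81% of all genes that were higher. The ligands *Sema3e*, *Efna5*, *Efnb2* and *Sema4b* and the receptor *Plxnc1* fell, 5 genes in all, beside 2.51% of all genes that were lower. No guidance gene passed in Nav1.8 KO or Nav1.9 KO DRG. *Epha5* and *Unc5d* changed by 1.7-fold and 1.82-fold, and the other 9 changes lay between 1.14-fold and 1.42-fold.

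Over the 70 genes the median log2 fold change in Nav1.7 KO DRG was 0.00 and its median size was 0.08, beside medians of 0.01 and 0.07 over all genes. The 36 ligands had 3 that rose and 4 that fell, and the 33 receptors had 3 that rose and 1 that fell. KO and littermate arrays did not overlap for 22 guidance genes in the Nav1.7 line (31.4%, beside 20.4% of all genes), for 11 in the Nav1.8 line (15.7%, beside 13.8%) and for 9 in the Nav1.9 line (12.9%, beside 18%). Arrays of the same group differed by a median SD of 0.10 over the guidance genes and 0.09 over all genes.

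Whole ganglia hold many cell types, so fewer cells of a type and less RNA per cell cannot be told apart. In Nav1.7 KO DRG 6 of the 15 measured non-peptidergic nociceptor markers fell and 1 rose, together 46.7%, beside 4.33% of all genes. Among the 6 was *Runx1*, the transcription factor of these neurons, which fell by 0.80 (adjusted p = 0.00188 from limma). The list averaged 10.07 to 10.53 in Nav1.7 KO arrays and 10.26 to 10.82 in littermate arrays. All 16 macrophage markers were higher in Nav1.7 KO DRG and 1 of them passed (6.25%, beside 4.33% of all genes). The list averaged 7.26 to 7.59 in KO arrays and 6.83 to 7.18 in littermate arrays of that line. In littermate arrays of the Nav1.8 line it averaged 7.51 to 7.65, and in those of the Nav1.9 line 7.42 to 7.60. Of the 16 markers 11 differed among the littermate groups (68.8%, beside 28.1% of all genes). Satellite glia averaged 11.20 to 11.31 in KO arrays and 11.15 to 11.26 in littermate arrays, and the Schwann cell, fibroblast and endothelial lists overlapped as well. Of 9 satellite glia markers 1 was called higher in Nav1.7 KO DRG (11.1%), and of 12 fibroblast markers 1 (8.33%). The share over all genes was 4.33%. None of the Schwann cell or endothelial markers passed. Of 8 muscle, fat and blood markers 7 were higher in Nav1.7 KO DRG and none passed, with a median log2 fold change of 0.64 and 5 over 1.5-fold, and the list averaged 6.73 to 8.80 in KO arrays and 6.66 to 7.76 in littermate arrays. Without *Avil* the sensory neuron markers averaged 12.96 to 12.99 in Nav1.7 KO arrays and 13.02 to 13.04 in littermate arrays. The part of these cell types in the guidance genes that changed was not tested.

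**Figure D1:**
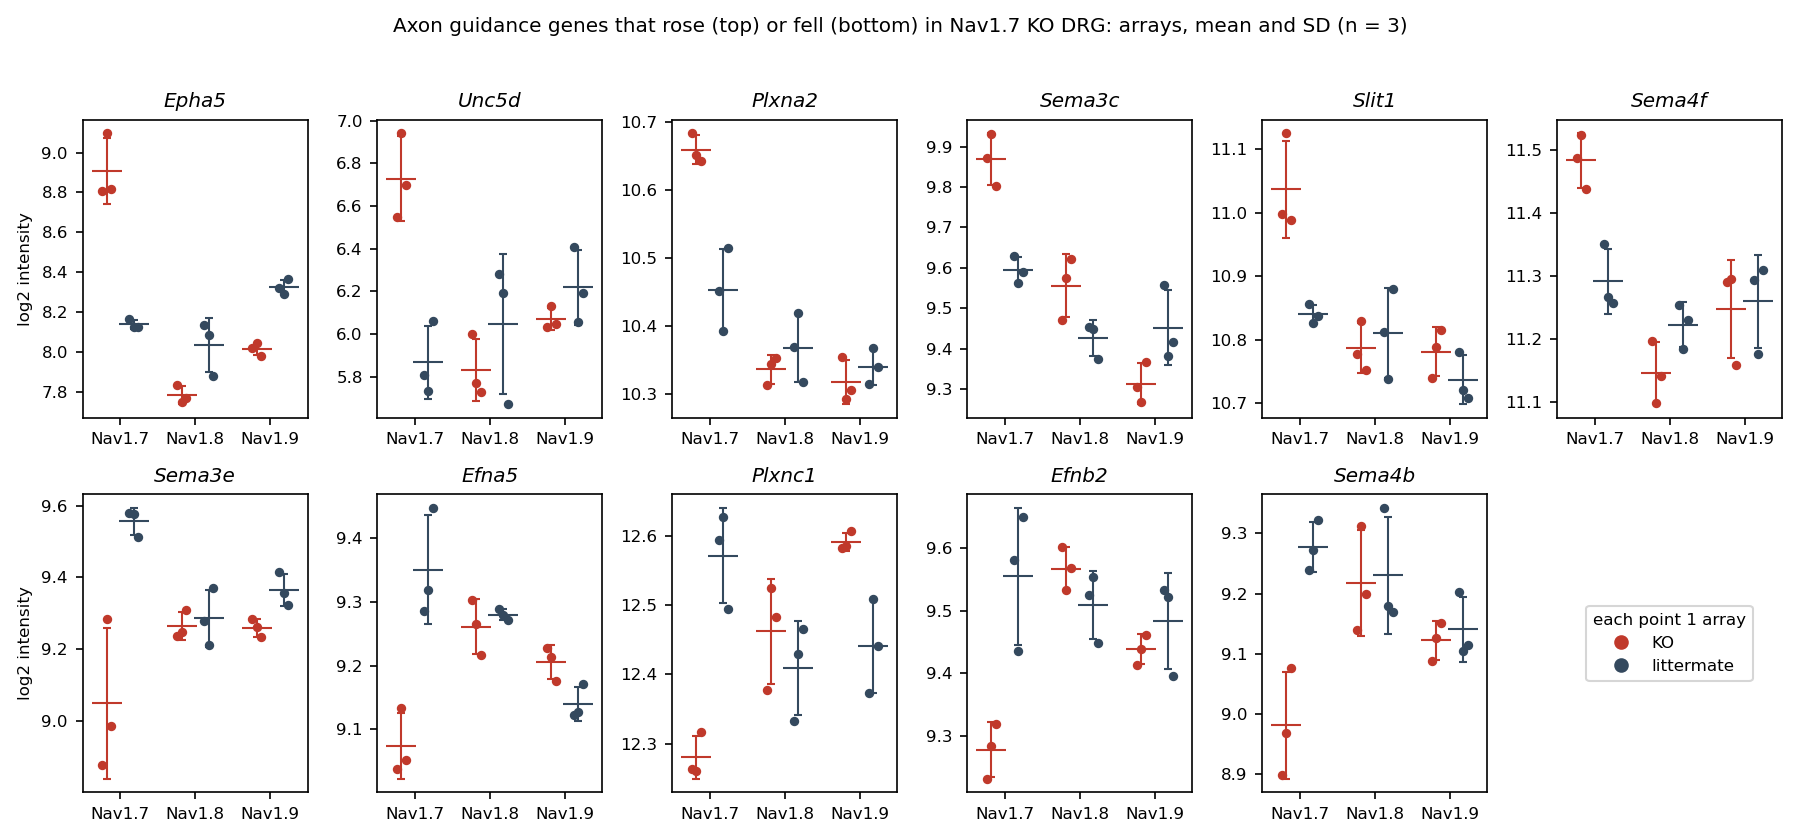
Log2 intensity (vertical axes) of the 11 guidance genes that passed in the Nav1.7 line, on every array of the 3 lines (horizontal axes), with KO arrays left of littermate arrays. Points are arrays, bars are the group mean and SD (n = 3), and the scale differs between panels; for each gene the 3 Nav1.7 KO arrays lie on 1 side of the 3 Nav1.7 littermate arrays.

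The promoters of the genes that changed were read from RefSeq (GRCm38.p6, 250 bases before to 50 after the transcription start), which held 59 of the 70 genes and 9 of the 11. They were searched on both strands for the RUNX core TGTGGT, because *Runx1* fell, and for the NFAT5 core TGGAAA, of a factor the study discusses. Neither motif contains the other. The RUNX core was in 0 of 10 windows of the changed genes, in 12% of the 75 windows of all guidance genes and in 16.8% of 32851 windows. The NFAT5 core was in 2 of 10, 13.3% and 21.4%. The median GC content of these windows was 67.2%, 64% and 52.7%, and its part in the shares was not tested. The windows that held the NFAT5 core are shown 5′ to 3′ with the matches in capitals. *Sema3e* has 2 on the shown strand. *Sema4f* has 1 on the other strand, which reads TTTCCA on the shown strand. *Epha5*, with the smallest p, is shown as the gene the results turn on and held neither. A match is only a run of letters, and its absence says only that those letters are not in this window.
Sema3e, chr5:14025026-14025325, + strand: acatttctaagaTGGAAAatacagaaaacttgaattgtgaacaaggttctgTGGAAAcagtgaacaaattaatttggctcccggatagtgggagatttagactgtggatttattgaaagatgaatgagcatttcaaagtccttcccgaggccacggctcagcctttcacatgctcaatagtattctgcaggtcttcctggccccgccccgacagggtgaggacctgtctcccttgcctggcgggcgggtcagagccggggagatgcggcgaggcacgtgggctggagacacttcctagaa
Sema4f, chr6:82939720-82940019, - strand: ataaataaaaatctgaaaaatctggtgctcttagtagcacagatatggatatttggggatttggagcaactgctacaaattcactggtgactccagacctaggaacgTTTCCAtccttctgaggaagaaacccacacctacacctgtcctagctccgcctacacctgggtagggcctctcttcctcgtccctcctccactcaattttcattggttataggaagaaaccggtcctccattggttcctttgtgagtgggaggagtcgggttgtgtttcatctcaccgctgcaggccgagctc
Epha5, chr5:84417333-84417632, - strand: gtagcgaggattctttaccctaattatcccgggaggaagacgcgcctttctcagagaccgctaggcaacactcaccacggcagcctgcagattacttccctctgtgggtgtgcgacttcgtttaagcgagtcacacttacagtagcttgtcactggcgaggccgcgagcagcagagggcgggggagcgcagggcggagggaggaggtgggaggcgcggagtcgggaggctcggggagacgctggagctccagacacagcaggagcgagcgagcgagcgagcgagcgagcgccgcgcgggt
In the *Sema3e* window the matches start 238 and 199 bases before the start site, and in the *Sema4f* window the match starts 143 bases before it. Only the match at 238 bases is followed by letters that fit the rest of the NFAT5 consensus. The gene with matches fell in Nav1.7 KO DRG in the first case and rose in the second.

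Among the ephrins and their receptors, *Epha5* had the smallest p of the 70 genes in every line. It encodes a receptor kinase for the A-type ephrins. In the Nav1.7 line it was at 8.81, 9.10 and 8.82 in KO arrays 1 to 3, against 8.17, 8.13 and 8.13 in littermate arrays. The lowest KO array was well above the highest littermate array, and the KO arrays were also above the littermate arrays of the other lines. The log2 fold change was 0.77 (95% CI 0.61 to 0.92, adjusted p = 7.4e-06 from limma). In the Nav1.8 line the same gene was at 7.84, 7.75 and 7.77 in KO arrays, against 8.14, 8.08 and 7.88 in littermate arrays. In the Nav1.9 line it was at 8.02, 8.05 and 7.98 in KO arrays, against 8.32, 8.29 and 8.37 in littermate arrays. In both of these lines every KO array was below every littermate array, the opposite of the Nav1.7 line. The log2 fold changes of -0.25 in Nav1.8 KO (adjusted p = 0.491 from limma) and -0.31 in Nav1.9 KO DRG (adjusted p = 0.071) did not pass. With the *Xist* class as a term the Nav1.8 value was -0.13. The Nav1.9 value passed under 5 alternatives, with adjusted p from 0.0321 to 0.0448, of a range of 0.0321 to 0.207 over all alternatives run. All 4 probe sets of *Epha5* rose in Nav1.7 KO DRG, by 0.32 to 0.88, and all 4 were lower in the other KO groups.

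Of the 8 ephrins, the ligands of these receptors, *Efna5* and *Efnb2* fell in the Nav1.7 line and none rose. *Efna5*, a membrane-anchored ligand of *Epha5* and other A-type Eph receptors, was at 9.04, 9.13 and 9.05 in Nav1.7 KO arrays and at 9.29, 9.32 and 9.45 in littermate arrays. *Efnb2*, a transmembrane ligand of B-type Eph receptors and of *Epha4* that also marks arteries, was at 9.23, 9.28 and 9.32 in Nav1.7 KO arrays and at 9.58, 9.44 and 9.65 in littermate arrays. Neither gene's groups overlapped. Both fell by 0.28 on the log2 scale, *Efna5* with an adjusted p of 0.00169 and *Efnb2* with 0.00707 (limma). Each call rests on the brightest probe set: the other *Efna5* probe set was at -0.01, and the other 3 of *Efnb2* lay between -0.16 and 0.04. With the mean of all probe sets the fold changes were -0.15 (adjusted p = 0.122) for *Efna5* and -0.11 (adjusted p = 0.192) for *Efnb2*.

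The other 6 ephrins and 12 Eph receptors did not pass in any line. Of the further ligands of *Epha5*, *Efna1* had a log2 fold change of 0.06 in Nav1.7 KO DRG, *Efna2* of -0.06, *Efna3* of -0.02 and *Efna4* of -0.15, each with an adjusted p of 0.44 or more from limma. The listed receptors of *Efnb2* were at -0.08 for *Ephb1*, -0.01 for *Ephb3*, -0.05 for *Ephb4* and 0.12 for *Epha4*, with adjusted p of 0.653 or more. *Epha4* and *Epha6* did not pass, but their Nav1.7 KO arrays lay outside all 9 littermate arrays, *Epha4* above them at 6.86, 6.89 and 6.89 and *Epha6* below them at 5.89, 5.91 and 5.96. Their adjusted p were 0.653 and 0.495.

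Of the 20 semaphorins, 2 rose and 2 fell in Nav1.7 KO DRG. *Sema3e*, a secreted ligand that binds *Plxnd1* without a neuropilin, was at 8.88, 9.28 and 8.99 in KO arrays and at 9.58, 9.58 and 9.51 in littermate arrays. KO array 2 was nearest to the littermates, and it is also the array of that group with low *Xist*. *Sema3e* fell by 0.51 (95% CI -0.67 to -0.35, adjusted p = 8.28e-04 from limma). Of its 4 probe sets 3 were lower and 2 passed, while the dimmest was at 0.10, and the mean of all probe sets gave -0.26 (adjusted p = 0.0277). *Sema3c*, a secreted ligand of the neuropilins and *Plxnd1*, was at 9.87, 9.93 and 9.80 in KO arrays and at 9.63, 9.56 and 9.59 in littermate arrays, a rise of 0.28 (adjusted p = 0.00736). Its second probe set was at 0.12, and the mean of the pair gave 0.20 (adjusted p = 0.0885).

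The other changed semaphorins are membrane-spanning members of class 4. *Sema4b* was at 8.90, 8.97 and 9.08 in Nav1.7 KO arrays and at 9.24, 9.27 and 9.32 in littermate arrays, and fell by 0.30 (adjusted p = 0.00798 from limma). *Sema4f* was at 11.49, 11.52 and 11.44 in KO arrays and at 11.35, 11.27 and 11.26 in littermate arrays, and rose by 0.19 (adjusted p = 0.0414). The *Sema4f* groups did not overlap, but the call was lost without KO array 1 (0.105), KO array 2 (0.143), littermate array 2 (0.128) or littermate array 3 (0.138), each an adjusted p from limma. The probe set read for *Sema4f* is of a type that can cross-hybridise, and the dimmer one rose by 0.25 (adjusted p = 0.0106 over all probe sets).

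The other 16 semaphorins did not pass. The smallest p among them was that of *Sema6b*, at 5.48, 5.67 and 5.56 in Nav1.7 KO arrays and at 5.69, 5.85 and 5.82 in littermate arrays (log2 fold change -0.22, adjusted p = 0.119 from limma). *Sema3d* was at 7.99, 8.22 and 7.92 in Nav1.7 KO arrays and at 7.77, 7.87 and 7.73 in littermate arrays, a log2 fold change of 0.25 (adjusted p = 0.138 from limma). It was at 0.27 in Nav1.8 KO DRG (adjusted p = 0.495) and at 0.11 in Nav1.9 KO DRG (adjusted p = 0.674). *Sema3b* spread widely in Nav1.7 KO arrays, at 9.08, 8.76 and 8.38, against 8.48, 8.42 and 8.25 in littermate arrays (adjusted p = 0.141). *Sema3c*, *Sema3d*, *Sema3e* and *Sema3a* lie on chromosome 5, as do *Epha5*, *Ephb4* and *Slit2*, and of these *Sema3e* alone fell and *Sema3c* and *Epha5* rose in Nav1.7 KO DRG. *Sema3a*, the ligand of *Nrp1*-bearing nociceptor axons, was at 0.06 (adjusted p = 0.747).

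Among the receptors of the semaphorins, *Plxnc1* fell and *Plxna2* rose in Nav1.7 KO DRG. *Plxnc1*, the plexin that binds *Sema7a*, was at 12.26, 12.26 and 12.32 in KO arrays and at 12.59, 12.63 and 12.49 in littermate arrays. Every Nav1.7 KO array was also below the littermate arrays of the other lines. It fell by 0.29 (95% CI -0.40 to -0.18, adjusted p = 0.00323 from limma), and all 6 of its probe sets were lower, by 0.09 to 0.63, of which 3 passed. *Plxnc1* lies on chromosome 10, as does *Avil*, which fell in Nav1.7 KO DRG. The guidance genes *Efna2*, *Ntn4* and *Unc5b* also lie there and did not pass. In Nav1.9 KO arrays *Plxnc1* was at 12.58, 12.59 and 12.61, above littermate arrays at 12.37, 12.51 and 12.44, and this difference of 0.15 did not pass (adjusted p = 0.251). *Sema7a* was at -0.08 in Nav1.7 KO DRG (adjusted p = 0.682).

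*Plxna2*, a plexin for *Sema6a* and for class 3 semaphorins bound to neuropilins, was at 10.68, 10.65 and 10.64 in Nav1.7 KO arrays and at 10.45, 10.39 and 10.51 in littermate arrays. It rose by 0.21 (95% CI 0.12 to 0.29, adjusted p = 0.00673 from limma), the smallest spread among KO arrays of the genes that changed. All 4 probe sets were higher and 1 passed, and their mean did not pass (0.16, adjusted p = 0.235). The neuropilins *Nrp1* and *Nrp2*, coreceptors of the secreted semaphorins, were at -0.06 (adjusted p = 0.734) and -0.16 (adjusted p = 0.344). *Plxnd1*, the receptor of *Sema3e*, was at 9.48, 9.47 and 9.30 in Nav1.7 KO arrays and at 9.44, 9.46 and 9.35 in littermate arrays, which overlap (adjusted p = 0.998). *Sema6a*, a ligand of *Plxna2*, was at 0.02 (adjusted p = 0.933).

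In the Slit and Robo family 1 of 7 genes changed. *Slit1*, a secreted ligand of the Robos, was at 11, 11.12 and 10.99 in Nav1.7 KO arrays and at 10.86, 10.83 and 10.84 in littermate arrays. It rose by 0.20 (95% CI 0.10 to 0.30, adjusted p = 0.0248 from limma), with the KO arrays above all 9 littermate arrays. The call was lost without KO array 2 (0.115) or without any of the littermate arrays 1 (0.0573), 2 (0.0823) or 3 (0.0716), each an adjusted p from limma, and with the mean of both probe sets (0.0874). *Robo2*, a receptor of *Slit1*, was at 5.35, 5.23 and 5.39 in Nav1.7 KO arrays and at 5.67, 5.81 and 5.63 in littermate arrays. These groups did not overlap, yet the log2 fold change of -0.38 did not pass (adjusted p = 0.0557). The same receptor was at 5.27, 5.23 and 5.24 in Nav1.8 littermate arrays and at 5.38, 5.35 and 5.01 in Nav1.9 littermate arrays. Among the littermate groups its mean was highest in the Nav1.7 line, and the reason was not tested. *Robo1*, the other neuronal receptor, was at -0.08 (adjusted p = 0.814).

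In the netrin family *Unc5d* changed most of all 70 genes in Nav1.7 KO DRG. *Unc5d* belongs to the netrin receptors that mediate repulsion, and it also binds FLRT proteins. It was at 6.55, 6.94 and 6.70 in Nav1.7 KO arrays and at 5.81, 5.73 and 6.06 in littermate arrays, and the KO arrays were above all 9 littermate arrays. The rise was 0.86 (95% CI 0.55 to 1.17, adjusted p = 0.00222 from limma). *Unc5d* has a single probe set here, under the 40th percentile of brightness, and no detection call was used. In Nav1.8 KO arrays it was at 6.00, 5.77 and 5.73 against 6.28, 6.19 and 5.67 in littermate arrays, and in Nav1.9 KO arrays at 6.03, 6.13 and 6.05 against 6.41, 6.06 and 6.19 in littermate arrays. Both of these pairs overlap. *Ntn1*, the ligand of the Unc5 receptors, was at 7.68, 7.88 and 8.10 in Nav1.7 KO arrays and at 8.03, 7.84 and 7.45 in littermate arrays (adjusted p = 0.761). *Ntng1*, a membrane-anchored netrin-G that binds the netrin-G ligand *Lrrc4c* and not Dcc, was at 9.73, 9.98 and 9.68 in Nav1.7 KO arrays and at 10.08, 9.95 and 10.05 in littermate arrays, a log2 fold change of -0.23 that did not pass (adjusted p = 0.0623). *Lrrc4c* was at 0.28 (adjusted p = 0.0891).

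**Figure D2:**
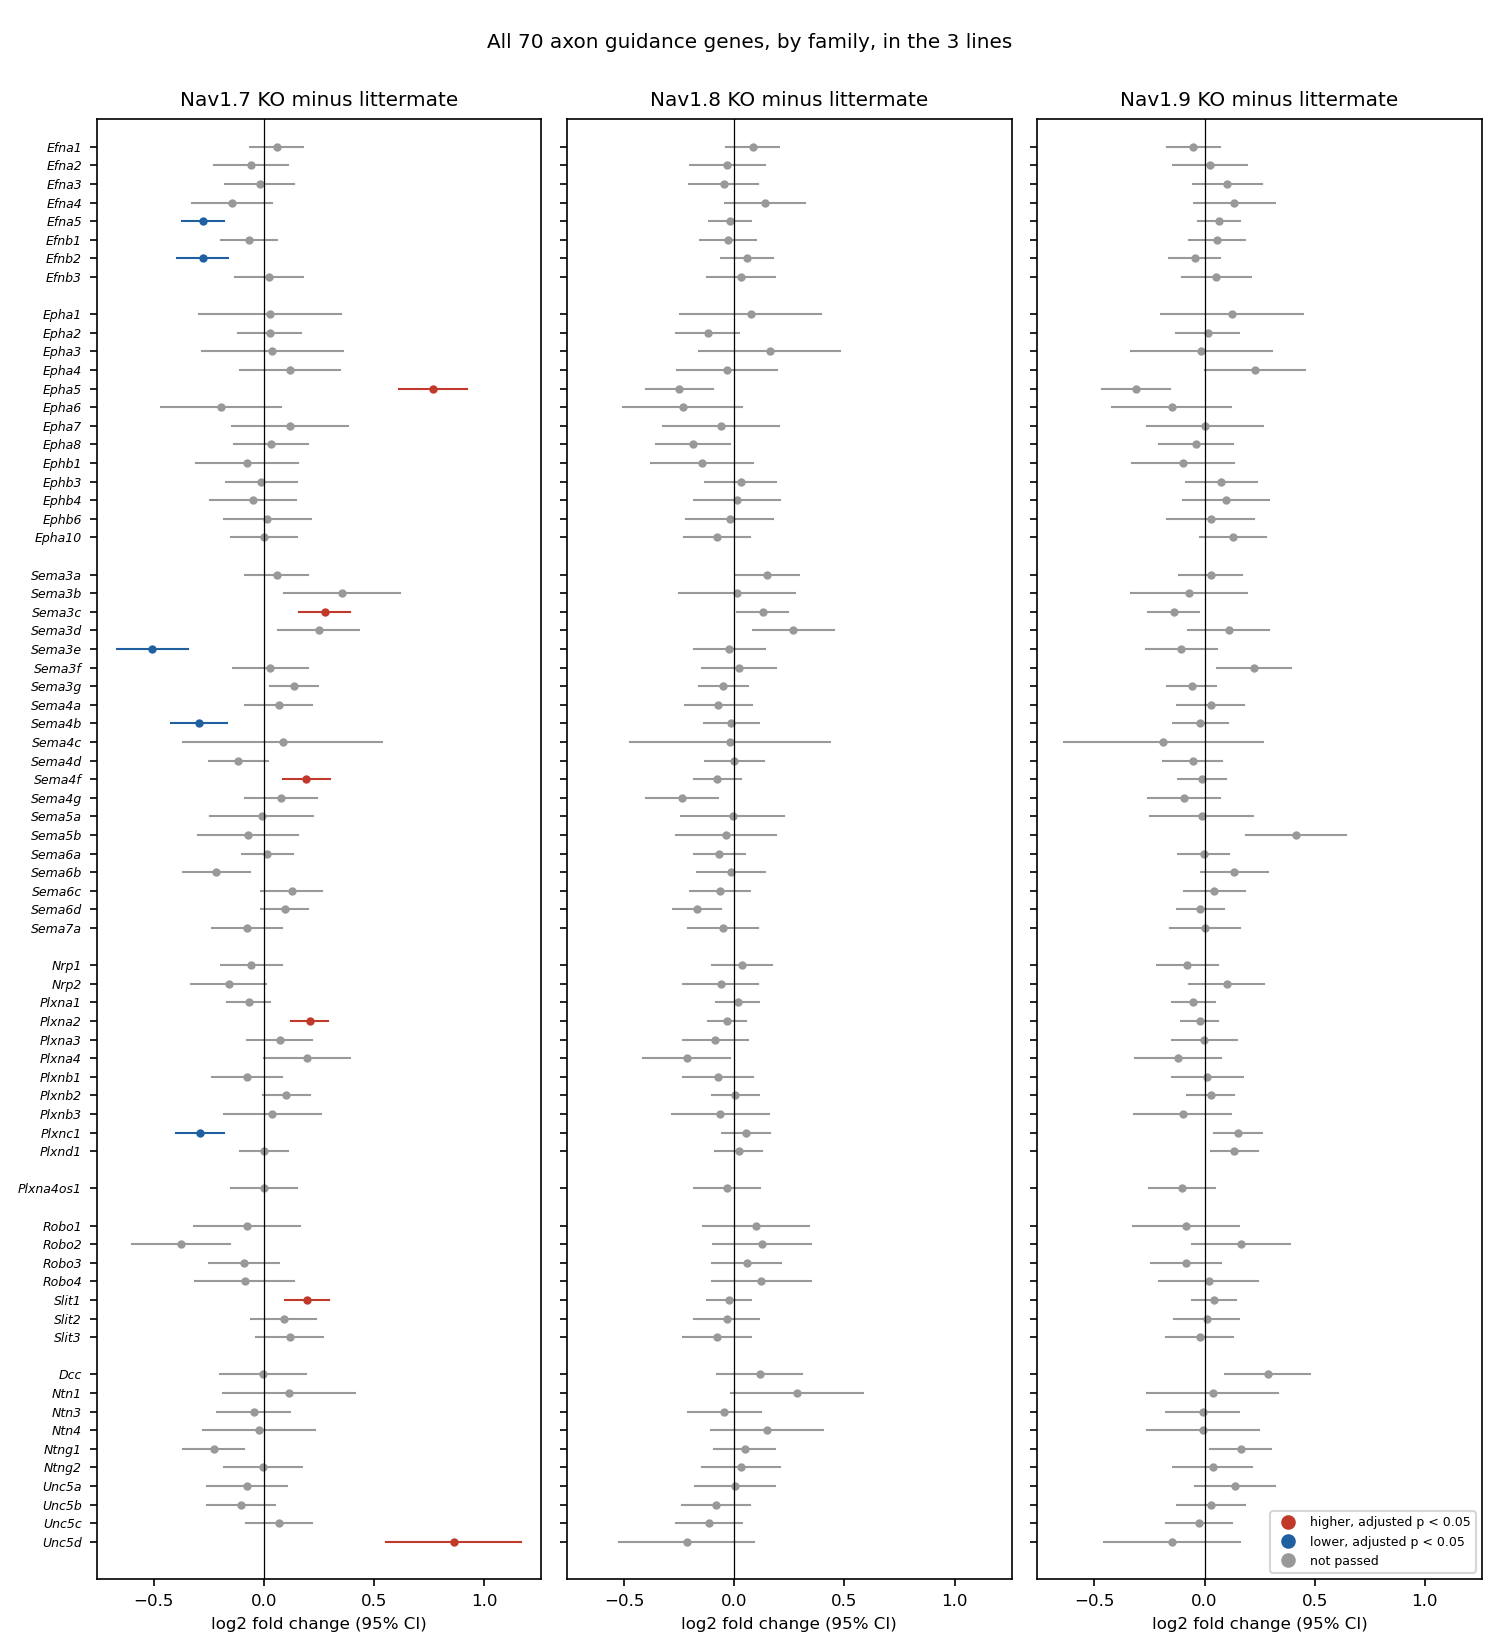
Log2 fold change of KO minus littermate (horizontal axes, points, with the 95% confidence interval as a bar) for all 70 guidance genes in family order (vertical axis) in the Nav1.7, Nav1.8 and Nav1.9 lines. Red and blue mark genes with an adjusted p under 0.05, of which 6 were higher and 5 lower in Nav1.7 KO DRG and none passed in the other lines.

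**Figure D3:**
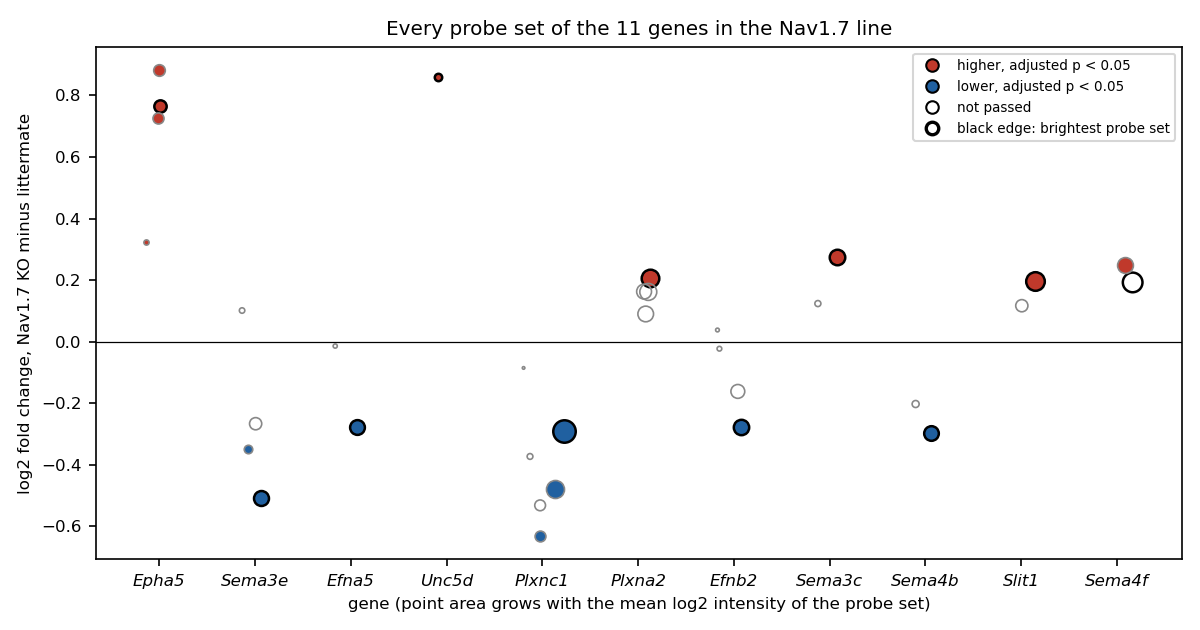
Log2 fold change in the Nav1.7 line (vertical axis) of every probe set of the 11 genes (horizontal axis), filled where the adjusted p over all probe sets was under 0.05, with a black edge on the probe set each gene was read from. All 4 points of *Epha5* lie above 0 and all 6 of *Plxnc1* below it, while *Efnb2* and *Sema3e* have points on both sides.

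In Nav1.8 KO DRG no guidance gene passed, with 0.0165% of all genes called. At an unadjusted p under 0.05 in limma there were 8 of the 70 (11.4%), beside 8.09% of all genes. The smallest p were those of *Epha5* and of *Sema6d*, a transmembrane semaphorin. *Sema6d* was at 11.76, 11.65 and 11.70 in Nav1.8 KO arrays and at 11.85, 11.93 and 11.83 in littermate arrays, a difference of -0.17 (adjusted p = 0.491). *Sema3d* at 0.27 and *Sema4g* at -0.24 followed (adjusted p = 0.495 for both). Without the 2 Xist-high arrays a single Nav1.8 KO array is left, and *Epha5* was at -0.20, *Sema6d* at -0.11, *Sema3d* at 0.11 and *Sema4g* at -0.12. With the mean of its probe sets *Sema6d* was at -0.04. *Plxna4*, the receptor of *Sema3a*, was at 8.77, 8.76 and 8.66 in Nav1.8 KO arrays and at 9.0, 9.01 and 8.83 in littermate arrays (adjusted p = 0.578).

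In Nav1.9 KO DRG no guidance gene passed either when read from its brightest probe set, with 0.473% of all genes called. At an unadjusted p under 0.05 in limma there were 9 of the 70 (12.9%), beside 12.1% of all genes. With each probe set tested separately, 1 of the 3 of *Sema6a*, a transmembrane semaphorin, was at -0.60 (adjusted p = 0.0411), while the one that was read was at 0.00 and the third at 0.12. Of the 4 of *Epha5*, 1 also passed, at -0.36 (adjusted p = 0.0401). After *Epha5* came *Sema5b*, a semaphorin with thrombospondin repeats, at 5.79, 5.91 and 6.32 in KO arrays and at 5.64, 5.70 and 5.44 in littermate arrays. Its difference was 0.41 (adjusted p = 0.106), and it was 0.26 without KO array 3, the highest. The netrin receptor *Dcc* was at 5.31, 5.23 and 5.49 in KO arrays and at 4.91, 5.02 and 5.25 in littermate arrays, a difference of 0.29 (adjusted p = 0.21). *Sema3c* was at 9.30, 9.27 and 9.37 in Nav1.9 KO arrays, below all 9 littermate arrays, and at 9.56, 9.38 and 9.42 in the littermate arrays of its line (adjusted p = 0.315). *Sema3f*, *Sema3b*, *Sema7a*, *Plxnb1*, *Ephb1*, *Robo3* and *Robo4* share chromosome 9 with *Scn10a* and *Scn11a*, and none of them passed in the Nav1.8 or Nav1.9 line.

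The KO effects were then compared between lines, as the difference of their log2 fold changes in the same limma model. The Nav1.7 effect differed from the Nav1.8 effect for 7 of 70 guidance genes (10%, beside 2.15% of all genes) and from the Nav1.9 effect for 7 (10%, beside 2.82% of all genes). The Nav1.8 and Nav1.9 effects differed for none of the 70, beside 0.0385% of all genes called. At an unadjusted p under 0.05 in limma there were 2 (2.86%), beside 9.04% of all genes. The 2 comparisons of the Nav1.7 line share its 6 arrays. *Epha5* differed by 1.02 (95% CI 0.80 to 1.23) against Nav1.8 and by 1.08 (0.86 to 1.29) against Nav1.9. *Unc5d* differed by 1.08 (0.64 to 1.51) and 1.01 (0.57 to 1.44). *Plxnc1* was at -0.34 and -0.44, *Efna5* at -0.26 and -0.34, and *Plxna2* at 0.24 and 0.23. *Sema3e* (-0.49) and *Efnb2* (-0.34) passed against Nav1.8, and *Sema3c* (0.41) and *Ntng1* (-0.39) passed against Nav1.9.

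Leaving out 1 array at a time, *Epha5* and *Unc5d* passed in both comparisons for all 12 arrays, as did *Plxnc1*, *Efna5* and *Sema3c* against Nav1.9. The other 7 differences were lost in 6 to 10 of 12 cases. With the *Xist* class as a term in the model, *Unc5d* was at 0.79 against Nav1.8 and did not pass (adjusted p = 0.184), and *Plxnc1* was at -0.27 (adjusted p = 0.269). With the mean of all probe sets, *Efna5* and *Plxna2* passed in neither comparison, *Sema3e* and *Efnb2* did not pass against Nav1.8, and *Sema3c* did not pass against Nav1.9. The differences of *Sema4b*, *Slit1* and *Sema4f* did not pass against either line, though *Sema4f* passed against both with the mean of its probe sets. For *Sema4b* the interval against Nav1.8 was -0.46 to -0.10 (adjusted p = 0.105).

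**Figure D4:**
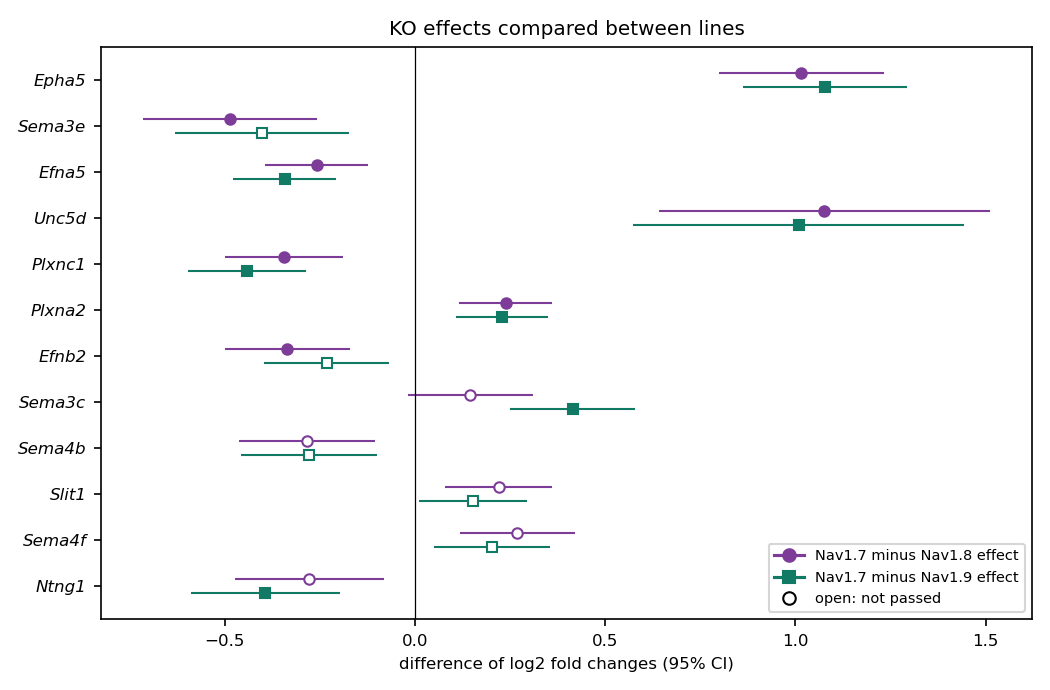
Difference between the KO effect of the Nav1.7 line and that of the Nav1.8 line (circles) or the Nav1.9 line (squares) on the log2 scale (horizontal axis, 95% confidence interval as a bar), for the 11 genes that changed in Nav1.7 KO DRG and *Ntng1* (vertical axis). Filled points have an adjusted p under 0.05; *Epha5* and *Unc5d* lie above 1 in both comparisons.

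The Nav1.7 KO arrays were also set against all littermate arrays of the 3 lines. All 3 lay outside the range of the 9 littermate arrays for 11 guidance genes (15.7%, beside 4.85% of all genes), 7 above and 4 below. These are 9 of the 11 that changed, with *Epha4* and *Epha6* in place of *Efna5* and *Sema3e*. *Efna5* was also low in Nav1.9 littermate arrays, at 9.12, 9.13 and 9.17, where the highest Nav1.7 KO array reached 9.13. In Nav1.8 KO DRG this held for 1 guidance gene, *Epha5* (1.43%, beside 1.7% of all genes), and in Nav1.9 KO DRG for *Sema3c* (1.43%, beside 2.40%).

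The littermate groups differed among themselves for 22 of the 70 guidance genes by limma's F test (31.4%, beside 28.1% of all genes). Line, strain background, hybridisation and *Xist* class cannot be told apart in this comparison. The widest gap was in *Sema4c*, a ligand of *Plxnb2*, which averaged 5.68 in Nav1.7, 6.24 in Nav1.8 and 6.65 in Nav1.9 littermates (SD 0.0543, 0.230 and 0.175, n = 3 each). *Sema4c* also varied most within groups of all 70 genes, at 6.01, 6.23 and 5.04 in Nav1.7 KO arrays. *Sema3b* averaged 8.38, 8.74 and 9.10 in the Nav1.7, Nav1.8 and Nav1.9 littermates (adjusted p = 0.00214 from limma). *Ntn1* averaged 7.77, 8.35 and 8.38 (adjusted p = 0.00633), and *Sema7a* 9.28, 9.64 and 9.64 (adjusted p = 0.00283). *Ntng1*, *Robo2* and *Epha4* were highest in Nav1.7 littermates. Of the genes that changed in Nav1.7 KO DRG, *Epha5*, *Efna5* and *Sema3e* also differed among the littermates. *Epha5* averaged 8.14, 8.04 and 8.33 in them, a range of 0.29, and *Sema3e* averaged 9.56, 9.29 and 9.37, a range of 0.27. With the *Xist* class as a term, 14 genes passed in place of 22.

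**Figure D5:**
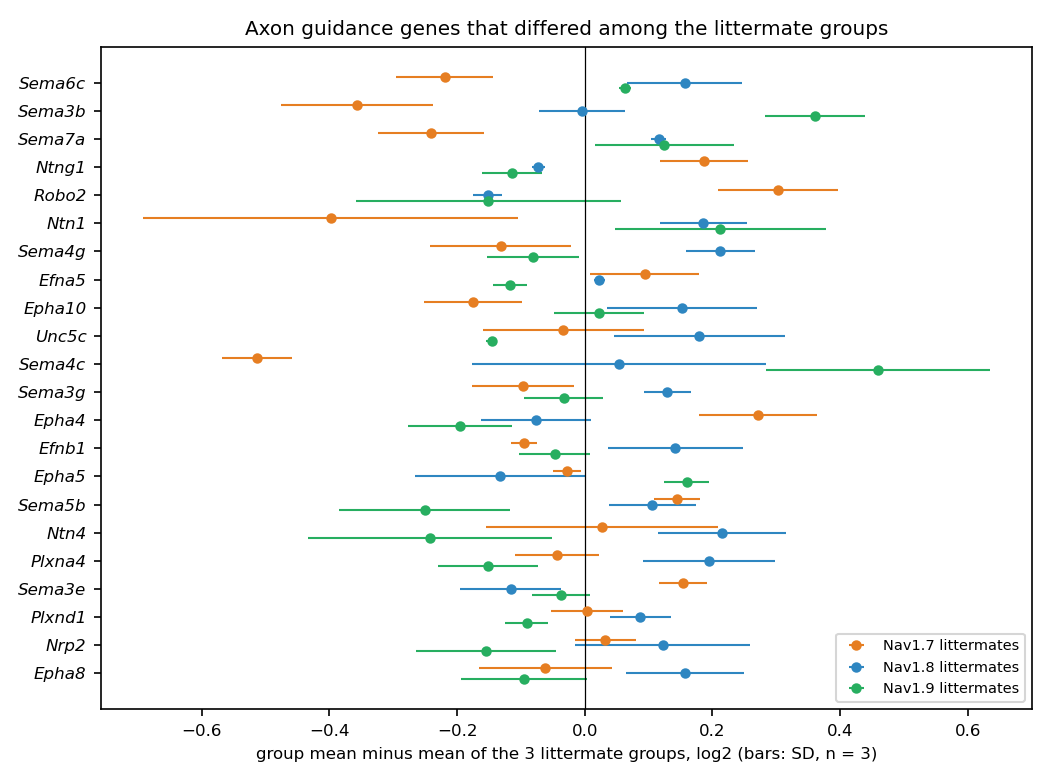
Mean of each littermate group minus the mean of the 3 group means, in log2 units (horizontal axis, bars are the SD of 3 arrays), for the 22 guidance genes that differed among the littermate groups (vertical axis, in order of p). *Sema4c* spans 0.97 from the Nav1.7 to the Nav1.9 littermates, and *Plxnd1* spans 0.18.

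Further genes of the pathway were read from 2 lists. The 30 partners are adhesion molecules and other receptors that guidance molecules bind or act beside. Of these 1 rose and 2 fell in Nav1.7 KO DRG (10%, beside 4.33% of all genes). None passed in Nav1.8 KO DRG (beside 0.0165%), and 2 fell in Nav1.9 KO DRG (6.67%, beside 0.473%). The adhesion molecule *Alcam* fell by 0.34 (adjusted p = 0.00601 from limma), and *Ncam1*, the neural cell adhesion molecule, fell by 0.20 (adjusted p = 0.0226). *Flrt3*, of the FLRT family that Unc5 receptors bind, rose by 0.38 in Nav1.7 KO DRG (adjusted p = 0.0223). In Nav1.9 KO DRG the same gene fell by 0.58 (adjusted p = 0.00972). *Met*, the receptor of hepatocyte growth factor, fell by 0.50 in Nav1.9 KO DRG (adjusted p = 0.0142). The rise of *Flrt3* was lost in 4 of 6 fits that left out an array and the fall of *Ncam1* in 3 of 6. The fall of *Flrt3* in Nav1.9 KO DRG held in all 6, and was lost in 1 of the 17 alternatives run (adjusted p = 0.189 from limma). The fall of *Met* was lost without Nav1.9 KO array 1 (adjusted p = 0.0639) or littermate array 1 (0.0688). Over the 16 alternatives run for *Met* it was lost in 5, with adjusted p up to 0.114 from limma.

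Of 47 measured genes that carry guidance signals inside the cell, 1 rose and 3 fell in Nav1.7 KO DRG (8.51%, beside 4.33% of all genes). None passed in the other lines. *Vav3*, a guanine nucleotide exchange factor that acts below Eph receptors, averaged 7.79 ± 0.0653 in KO arrays and 8.72 ± 0.0387 in littermate arrays (SD, n = 3 each) and fell by 0.93 (adjusted p = 5.42e-07 from limma). *Kalrn*, another exchange factor, averaged 9.03 ± 0.0687 in KO arrays and 9.44 ± 0.106 in littermate arrays and fell by 0.42 (adjusted p = 2.98e-04). *Limk2*, a kinase that acts on cofilin, rose by 0.48 (adjusted p = 0.0101), a call lost without KO array 2 (0.0534) or littermate array 3 (0.0548). Over the 17 alternatives run for *Limk2* the call was lost in 4, with adjusted p up to 0.182 from limma. *Srgap2*, a Slit-Robo GTPase-activating protein, fell by 0.17 (adjusted p = 0.0359), a call lost without any 1 of the 6 arrays, and it was at 0.01 with the mean of its probe sets (adjusted p = 0.946). The medians of the partner and signalling lists were 0.03 and 0.00, beside 0.01 over all genes.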

How the data were processed

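Whole DRG RNA was measured on Affymetrix mouse genome arrays, 3 arrays in each of 6 groups. The authors processed the scans with Affymetrix Expression Console and deposited 1 log2 intensity for every probe set on every array. The log2 unit was read from the values. The summary method and normalization are not given in the sources used here, and the arrays have nearly equal medians (6.33 to 6.36). Replicates correlated at 0.996 to 0.998, no 2 arrays were identical, and the number of arrays limits the precision. Groups came from sample titles and genotypes, since the source name field reads littermate control for every array.

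Of 45101 probe sets, 64 controls were left out, and 34945 have 1 symbol in the platform annotation, 932 several and 9160 none listed. Each of 18193 genes was read from its brightest probe set. Group means were fitted to all 18 arrays in limma 3.58.1 under R 4.3.3 (12 residual and 3.44 prior degrees of freedom). Contrasts were KO minus littermate, the differences of these between lines, and an F test over littermate groups. No brightness filter was applied. The fit was tested on simulated data. An exact permutation test of 3 against 3 arrays cannot go below 0.1 and was not used.

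The guidance genes and the lists were chosen with earlier results of these data known. Named genes are the checks, members that passed a comparison, the 4 with the smallest p in a line with fewer calls, listed partners of changed genes, and up to 4 genes per list and line. *Epha6*, *Robo2*, *Sema3a*, *Sema3b*, *Sema6b*, the separate probe set of *Sema6a*, *Sema3d* in the Nav1.7 line and the chromosome sharers were named after their values were seen. Alternatives were a separate fit for each line, median centring, quantile normalization, leaving out probe sets below the 40th percentile of brightness or ending _x_at or _s_at, the mean of probe sets, each probe set separately, array weights, a robust prior with a trend, the replicate number as a block, the *Xist* class (cut at 9 on the log2 scale), the thresholds of the study and leaving out each array. The block and *Xist* class for the differences between lines, the *Xist* class for the littermate test, and the left-out arrays for both were added after seeing the data.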

Additional observations from a re-analysis of the deposited data

Results flagged for a closer look

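The effect of the KO differed between lines, by a test of the difference itself, for 9 guidance genes in 14 comparisons. Against the Nav1.8 line, the Nav1.7 effect differed on the log2 scale by 1.02 for *Epha5* (adjusted p = 4.28e-05 from limma), 1.08 for *Unc5d* (0.0107), -0.34 for *Plxnc1* (0.0215), -0.49 for *Sema3e* (0.0264), -0.34 for *Efnb2* (0.0346), 0.24 for *Plxna2* (0.0414) and -0.26 for *Efna5* (0.0477). Against the Nav1.9 line it differed by 1.08 for *Epha5* (2.37e-05), -0.44 for *Plxnc1* (0.00295), -0.34 for *Efna5* (0.00661), 0.41 for *Sema3c* (0.0067), 1.01 for *Unc5d* (0.0117), -0.39 for *Ntng1* (0.0301) and 0.23 for *Plxna2* (0.0418). *Epha5* is the gene for which every Nav1.7 KO array lay above, and every Nav1.8 and Nav1.9 KO array below, the littermate arrays of its line. Groups of 3 arrays are too small for a test of single outlying arrays.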

How the results depend on the processing

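The count of 11 guidance genes in Nav1.7 KO DRG was 2 with each line fitted alone, 6 with the mean of all probe sets and 2 at the study's thresholds (unadjusted p under 0.01 and over 1.5-fold), where *Epha5* and *Unc5d* were left in both cases of 2. Leaving out 1 array gave 9 to 12, and 9 of the 11 genes, all but *Sema4f* and *Slit1*, kept their calls in all 6. With each line alone *Plxnc1* was at an adjusted p of 0.0512 in limma. The count of 0 in Nav1.9 KO DRG was 1, *Epha5*, without dim probe sets, with the mean of probe sets, a trend and robust prior, array weights or the *Xist* class. For Nav1.7 against Nav1.8 effects the count of 7 was 4 with the mean of probe sets, 3 with the replicate block, 3 with the *Xist* class and 2 to 7 with an array left out. For Nav1.7 against Nav1.9 effects leaving out an array gave 5 to 7. Littermate differences fell to 14 with the *Xist* class, against 22, and were 16 to 22 with an array left out. Counts for Nav1.8 KO and for Nav1.8 against Nav1.9 effects were 0 throughout. All these counts stand without the share of all genes under the same setting. They do not show whether guidance genes lost calls more than other genes did.

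The main fit did not take replicate numbers as pairs. Deviations of same-numbered arrays correlated at -0.19 to 0.27, with 3 of 9 pairs over 0.1. In the Nav1.7 line they were at 0.02, 0.25 and 0.27, and KO and littermate arrays 2 and 3 crossed were at -0.25. Differently numbered arrays reached 0.23 in the Nav1.8 line and 0.24 in the Nav1.9 line. These correlations do not settle whether the arrays are paired. With the replicate block 10 guidance genes passed in Nav1.7 KO DRG (*Sema4f* and *Slit1* lost, *Sema3b* gained), 0 in each of the other KO groups, and 5 for Nav1.7 against Nav1.9 effects. Over 782 single-gene values, 630 stayed on their side of the threshold, 146 lost it, 5 gained it and 1 changed sign, *Srgap2* in Nav1.7 KO DRG at 0.0109 with the mean of probe sets. The causes were not tested. Signal over background is not known for dim probe sets such as those of *Unc5d*, *Robo2* and *Dcc*.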
